A study of Mus musculus with 6 samples.

Results

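Chemokines and chemokine receptors were taken as every entry of the deposited gene table whose symbol begins with Ccl, Cxcl, Ccr or Cxcr followed by a digit, together with Cx3cl1, Cx3cr1, Xcl1 and Xcr1. This gave 59 of 23358 entries, of which 39 were ligands and 20 were receptors. The filter on low counts was passed by 50 of them, 32 ligands and 18 receptors, which were tested among 16415 entries. The tumors arose in mice carrying NT3, a transgene for the NF-κB inducing kinase NIK that lacks the TRAF3-binding domain and is switched on by Cre at the ROSA26 locus. A single tumor was sequenced from each of 6 female mice, and tumors are named here by mouse number. Tumors 13, 18 and 25 came from Osx-Cre;NT3 mice, in which a doxycycline-repressible Osterix promoter drives Cre in a stock of C57Bl/6J and CD1 origin, with doxycycline fed until weaning. Tumors 27, 29 and 36 came from FSP1-Cre;NT3 mice, in which the S100a4 promoter drives Cre from an FVB/n line. S100a4 is known from fibroblasts and also from myeloid cells, so that Cre need not be limited to one cell type. Tumors 13, 18 and 25 were from the trunk with latencies of 150, 168 and 115 days. Tumor 29 was also from the trunk, with a latency of 72 days, whereas tumors 27 and 36 were perineal, with latencies of 101 and 52 days. Line therefore cannot be told apart from strain background and latency, and both perineal tumors belonged to the FSP1-Cre;NT3 line. All 6 tumors carried NT3, and tissue without it was not analysed here.

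Chemokines are small secreted proteins that attract leukocytes along a gradient by binding receptors coupled to G proteins. They are named CC, CXC, CX3C or XC after the spacing of their first cysteines, and a receptor often binds several ligands while a ligand may bind several receptors. Inflammatory chemokines such as Cxcl1, Ccl2 and Cxcl10 are induced by classical NF-κB or interferon signaling. NIK acts in the alternative NF-κB pathway, which is known in lymphoid stroma for the homeostatic chemokines Ccl19, Ccl21, Cxcl12 and Cxcl13.

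Total counts ranged from 51824408 to 163297772 per tumor, and 3 counts corresponded to from 0.0195 to 0.0621 CPM. CPM, counts scaled to library size with TMM factors, was used to compare tumors, and the deposited RPKM, which divides by transcript length, to compare genes. The counts of Map3k14, the gene for NIK, were 54.6, 38.7 and 118 CPM in the Osx-Cre;NT3 tumors (13, 18 and 25) and 103, 90.8 and 43.5 CPM in the FSP1-Cre;NT3 tumors (27, 29 and 36). Gene counts do not separate transgene from endogenous RNA. Keratinocyte markers summed to between 6041 and 14325 CPM and fibroblast markers to between 5191 and 14991 CPM, so that RNA of both lists was abundant in every tumor. Tumor 36 stood apart from the others: among 16415 entries, 1127 (6.87%) had a tumor beyond Dixon's critical value for 6 samples, and in 742 of these it was tumor 36. Several results that rest on it are therefore given with and without it.

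Among the members, 16 had a mean above 10 RPKM and 42 a mean above 1 RPKM. The most abundant was Ccl20, the ligand of Ccr6, with a mean of 795 ± 446 RPKM (SD, n = 6 tumors), rank 87 of all entries. Ccl8 followed with 152 ± 143 RPKM, then Cxcl14 with 73.7 ± 38.7 RPKM and Cxcl16 with 67.8 ± 21.6 RPKM. The most abundant receptor was Cxcr4, with 16.1 ± 2.54 RPKM. Ccl26, Ccl21a, Ccl21b, Ccl21c and Ccl27b were listed at 0 in every tumor. The Ccl21 and Ccl27 genes of chromosome 4 lie among near-identical copies, and the deposited spans of Ccl21b and Ccl21c overlap, so that a listed 0 is uncertain for these genes. Cxcl17, Cxcr1, Cxcl15 and Ccr1l1 had some counts but none above 0.221 CPM in any tumor, and were not tested.

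**Figure D1:**
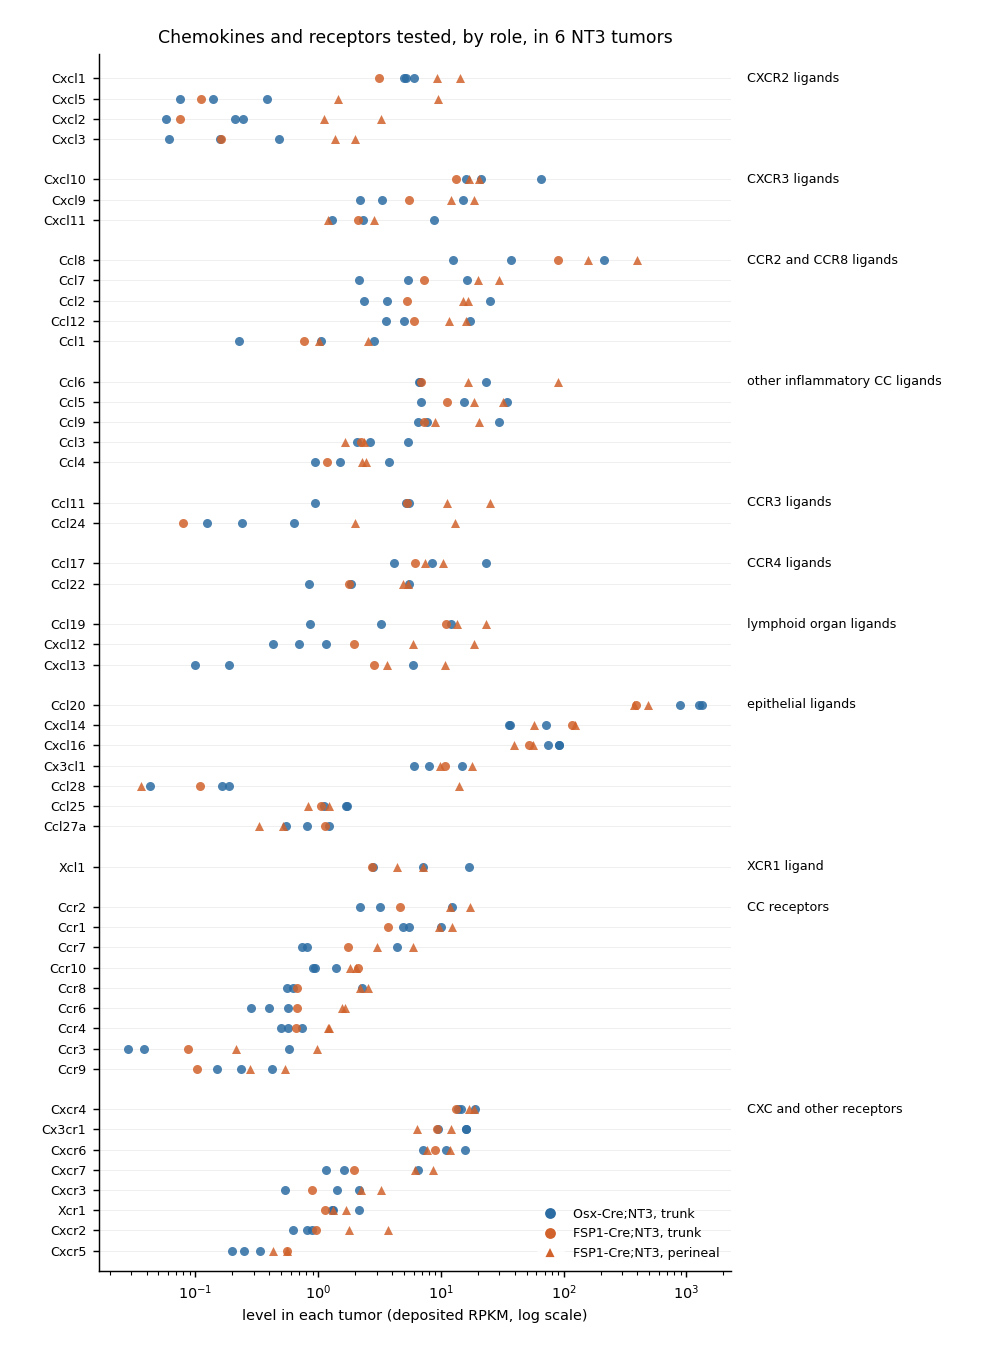
Deposited RPKM (log axis) of 49 of the 50 members tested, one point per tumor, grouped by role and ordered by mean level within a role; color gives the line and shape the site. Ccl20 has the highest mean of all members, with the 3 Osx-Cre;NT3 tumors to the right of the 3 FSP1-Cre;NT3 tumors, while Cxcl5, Cxcl2, Cxcl3 and Ccl24 have both perineal tumors to the right of the 4 trunk tumors. In tumor 36, Ccl8 (399.5 RPKM) lies above Ccl20 (373.6 RPKM).

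The members' levels spread widely over the tumors. The highest tumor exceeded the lowest by a median factor of 5.5 over the 50 members tested, and by 2.37 over all entries tested. The factor was above 10 for 15 members (30.0%), where it was above 10 for 10.1% of all entries tested. It was widest for Ccl28 (426), Ccl24 (163), Cxcl5 (117) and Cxcl13 (111), and narrowest for Cxcr4 (1.5). The extremes fell on a few tumors. Tumor 36 was the highest for 21 members (against 24.8% of all entries) and tumor 18 for 16 (against 22.8%). Tumor 25 was the lowest for 24 members (against 18.7%) and the highest for none. Without tumor 25, the factor was above 10 for 9 members.

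In the comparison of the lines, edgeR's quasi-likelihood test called 0 of the 50 members and 0 of 16415 entries (0.0%) at an adjusted p of 0.05. The smallest adjusted p of all entries was 0.359. The Benjamini-Hochberg adjustment gave this value to several entries at once, Ccl20 (unadjusted p 0.000303 from edgeR) among them, so that it does not rank Ccl20 first. At an unadjusted p under 0.05 edgeR found 7 members (14.0%), against 10.8% of all entries. Ccl20 and Cxcl16 were lower in FSP1-Cre;NT3 tumors (2 of 50, against 3.47% of all entries), and Cxcl12, Ccr6, Cxcl5, Cxcr2 and Cxcl2 were higher (5 of 50, against 7.31%). DESeq2 called 4 members, Ccl20, Cxcl16, Cxcl12 and Cxcl5, against 2.56% of all entries. When each tumor was left out in turn, DESeq2 called Ccl20 and Cxcl12 in 6 of 6 fits, Cxcl5 in 4 (not without tumors 13 or 36) and Cxcl16 in 2 (without tumors 25 or 29). Ccl28 and Cxcl13 received no adjusted p from DESeq2 in this comparison. Without tumor 36, DESeq2 called Ccl20 and Cxcl12 and 1.18% of all entries. The levels of the lines did not overlap for 7 members (14.0%), near the 17.0% of all entries. The median log2 fold change of FSP1-Cre;NT3 over Osx-Cre;NT3 was 0.55 over the members and 0.01 over all entries. Leaving out each tumor in turn moved the members' median to between 0.08 without tumor 36 and 1.08 without tumor 18, with 0.33, 0.22 and 0.19 without tumors 13, 25 and 27. On the 4 trunk tumors alone it was -0.61, with 12 of 51 members above 0.

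In the comparison of the sites, edgeR's quasi-likelihood test called 0 members and 0.0% of all entries at an adjusted p of 0.05, and the smallest adjusted p was 0.287. At an unadjusted p under 0.05 it found 13 of 50 members, against 10.2% of all entries. Higher in perineal tumors were Ccl11, Ccl24, Ccl28, Ccl6, Ccr6, Cxcl1, Cxcl12, Cxcl2, Cxcl3, Cxcl5 and Cxcr2 (11 of 50, against 8.61% of all entries), and lower were Ccl20 and Cxcl16 (2 of 50, against 1.63%). The levels of the sites did not overlap for 13 of 50 members, against 19.6% of all entries, with 11 higher in perineal tumors, against 9.98%. DESeq2 called 8 members, Ccl24, Ccl28, Ccr6, Cxcl12, Cxcl2, Cxcl3, Cxcl5 and Cxcr2, against 3.42% of all entries, and gave Ccr3 no adjusted p. When each tumor was left out in turn, it called Ccl24, Cxcl12 and Cxcl5 in 5 of 6 fits (not without tumor 36), Cxcl2 in 5 (not without tumor 27) and Cxcr2 in 4 (not without tumors 13 or 36). Ccr6 was called in 2 (without tumors 18 or 29), Cxcl3 in 1 (without tumor 18) and Ccl28 in 1 (without tumor 27). Without tumor 36, DESeq2 called Cxcl2 and 0.0841% of all entries, and edgeR found 7 members at an unadjusted p under 0.05 (14.0%), against 1.98%. These were Ccl24, Ccr6, Cxcl1, Cxcl12, Cxcl2, Cxcl3 and Cxcl5. With tumor 36 as the only perineal tumor, edgeR called Ccl24, Ccl28, Cxcl12 and Cxcl5 at an adjusted p of 0.05, and 2.47% of all entries. With 1 perineal tumor the spread comes from the trunk tumors alone, so that such calls describe that tumor and not the site. The median log2 fold change of perineal over trunk was 0.79 over the members and -0.02 over all entries, and the members' median was 0.51 without tumor 36 and 1.39 without tumor 18.

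**Figure D2:**
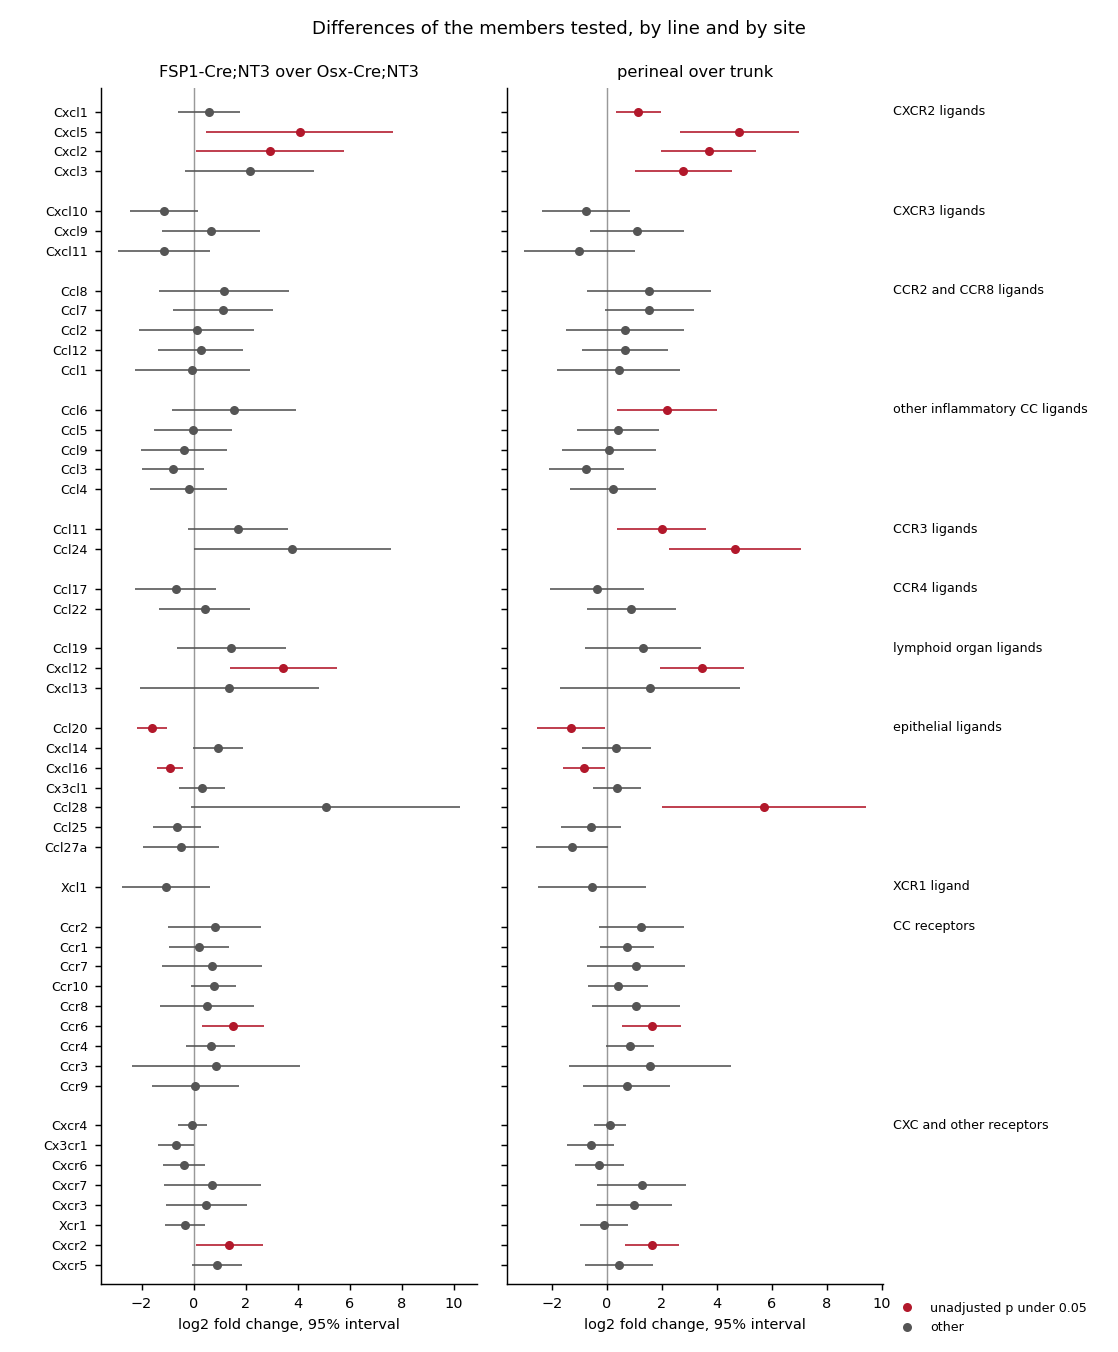
Log2 fold changes with 95% intervals from edgeR for 49 of the 50 members tested, by line (left) and by site (right), grouped by role; red marks an unadjusted p under 0.05, which 7 members reached by line and 13 by site. Ccl20 and Cxcl16 lie below 0 in both panels, while Cxcl5, Cxcl2, Ccl24 and Cxcl12 lie above 0, with wider intervals by line than by site.

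Per length, the ligands grouped here as epithelial carried between 64.4% and 94.5% of the summed ligand RPKM in 5 tumors. They carried 39.3% in tumor 36, and the cell source of this RNA was not tested. Ccl20, which attracts lymphocytes and dendritic cells bearing Ccr6, had 955, 1430.3 and 1259 CPM in tumors 13, 18 and 25 and 441, 389 and 371 CPM in tumors 27, 29 and 36. Every Osx-Cre;NT3 tumor was thus above every FSP1-Cre;NT3 tumor, and the trunk tumor of the FSP1-Cre;NT3 line, 29, lay with the perineal tumors. The means were 1215 ± 241 CPM and 400.2 ± 36.2 CPM (SD, n = 3 each), a log2 fold change of -1.60 with a standard error of 0.24 (95% interval -2.17 to -1.04), or 3.04-fold lower. The adjusted p was 0.359 with edgeR and 2.17e-08 with DESeq2, so that the call depended on the tool. On the trunk tumors alone, with tumor 29 as the only FSP1-Cre;NT3 tumor, the log2 fold change was -1.65. Per length, Ccl20 made up 73.7%, 66.8% and 85.9% of the summed RPKM of all ligands in the Osx-Cre;NT3 tumors (13, 18 and 25), against 45.6%, 50.7% and 29.6% in the FSP1-Cre;NT3 tumors (27, 29 and 36). It was the leading ligand in every tumor but 36, where Ccl8 came before it.

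In bulk tumors, fewer cells of a type and less RNA per cell cannot be told apart. The keratinocyte list, all 8 of whose markers were found, summed to 14325, 9855 and 10625 CPM in the Osx-Cre;NT3 tumors (13, 18 and 25). In the FSP1-Cre;NT3 tumors (27, 29 and 36) it summed to 9709, 12772 and 6041 CPM. Its markers were split: Krt5, Krt14, Krt15 and Trp63 were the lowest in tumor 36, whereas Krt1, Krt10, Lor and Dsg3 were the highest there. The part of this list in the level of Ccl20 was not tested.

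The Ccl20 gene (chr1:83116766-83119167 in mm10) has a match to the κB consensus, the sequence bound by NF-κB dimers, just before its start in the RefSeq promoter table (GRCm38.p6). The match spans 80 to 71 bases before the start and was found on the strand opposite to the gene. It is shown in capitals in its surroundings (chr1:83116666-83116715, plus strand), because Ccl20 is the most abundant member.
Ccl20: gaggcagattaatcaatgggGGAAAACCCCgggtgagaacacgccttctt
The promoter table held 43 of the 59 members, and 10 of them (23.3%) had a match on either strand in the 250 bases before the start, against 8.23% of 27025 promoters. These were Ccl1, Ccl20, Ccl9, Ccr1, Ccr3, Ccr6, Cxcl1, Cxcl10, Cxcl2 and Cxcl3, of which Ccr6 had its match at a start 6483 bases from the deposited one. A match describes letters and not binding.

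Cxcl16, a ligand of Cxcr6 that is also made as a membrane-bound scavenger receptor, had 297, 297 and 226 CPM in tumors 13, 18 and 25 and 157, 160.3 and 121 CPM in tumors 27, 29 and 36. Its lines did not overlap either. The log2 fold change was -0.91 with a standard error of 0.21 (95% interval -1.41 to -0.40), with an adjusted p of 0.432 from edgeR and 0.00951 from DESeq2. It was -0.79 without tumor 36 and -0.78 on trunk tumors alone. Exons of Zmynd15 on the other strand cover 18.3% of the exonic bases of Cxcl16, and the strandedness of the counting was not given in the sources used here. Zmynd15 had a mean of 19.3 CPM, against 209.6 CPM of Cxcl16.

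Cxcl14, a chemokine of normal skin epithelium, had a higher mean in FSP1-Cre;NT3 tumors. Its levels were 173, 85.7 and 82.2 CPM in tumors 13, 18 and 25 and 257, 266 and 131 CPM in tumors 27, 29 and 36. Tumor 13 lay above tumor 36, so that the lines overlapped, and the log2 fold change was 0.94 (95% interval -0.02 to 1.90). Without tumor 36 it was 1.20 (95% interval 0.29 to 2.11). Cx3cl1 (fractalkine) differed little between the lines, at 38.7 ± 16.8 CPM in Osx-Cre;NT3 and 48.3 ± 14.1 CPM in FSP1-Cre;NT3 tumors (SD, n = 3 each), a log2 fold change of 0.32 (95% interval -0.55 to 1.19).

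Ccl28, a mucosal and glandular chemokine that binds Ccr10, was set apart by tumor 36. It had 0.828, 0.935 and 0.197 CPM in tumors 13, 18 and 25 and 0.153, 0.513 and 65.4 CPM in tumors 27, 29 and 36. The site difference of 5.72 on the log2 scale became -2.0 without tumor 36. The simple epithelium markers, of which all 6 were found, summed to 4867 CPM in tumor 36 and to between 569 and 1191 CPM in the others, with Cldn3 at 397 CPM in tumor 36 and at most 5.97 CPM elsewhere. Krt8, Krt19, Epcam and Cldn7 were also the highest in tumor 36, whereas Krt18 was the highest in tumor 18. The part of these markers in the level of Ccl28 was not tested.

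**Figure D3:**
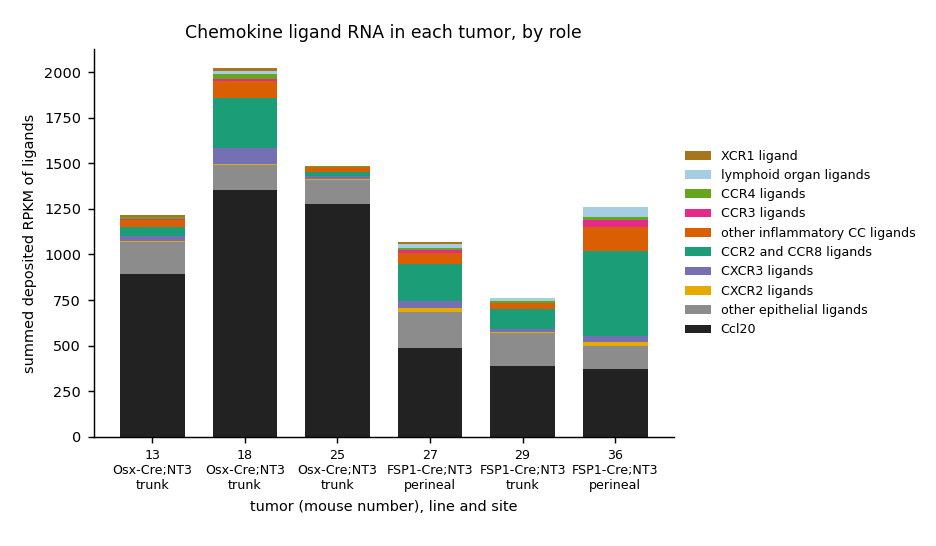
Deposited RPKM of the 39 ligands summed by role in each tumor (bars start at 0), with Ccl20 set apart from the other epithelial ligands. Ccl20 fills between 66.8% and 85.9% of the bar in the 3 Osx-Cre;NT3 tumors and between 29.6% and 50.7% in the 3 FSP1-Cre;NT3 tumors; the ligands of Ccr2 and Ccr8 reach 276 RPKM in tumor 18 and 464 RPKM in tumor 36.

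The ligands of Cxcr2, which recruit neutrophils, were low. Cxcl1 was the most abundant, with 6.33, 6.49, 7.04 and 3.72 CPM in the trunk tumors 13, 18, 25 and 29 and 15.4 and 10.8 CPM in the perineal tumors 27 and 36. Cxcl2 had 0.0828, 0.351, 0.281 and 0.103 CPM in the same trunk tumors and 3.99 and 1.5 CPM in the perineal tumors. Cxcl3 had 0.0828, 0.636, 0.197 and 0.205 CPM in the trunk tumors and 2.27 and 1.72 CPM in the perineal tumors. Both perineal tumors lay above all 4 trunk tumors for each of these ligands. The same held for Cxcl5, with 0.166, 0.844, 0.281 and 0.231 CPM in the trunk tumors and 2.7 and 19.3 CPM in tumors 27 and 36. The fifth ligand within the symbol rule, Cxcl15, had at most 0.153 CPM in any tumor and was not tested. Tumor 29, the trunk tumor of the FSP1-Cre;NT3 line, lay within the Osx-Cre;NT3 range for Cxcl2, Cxcl3 and Cxcl5 and below it for Cxcl1.

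The log2 fold change of perineal over trunk was 1.15 for Cxcl1 (standard error 0.35, 95% interval 0.32 to 1.99). For Cxcl2 it was 3.71 (standard error 0.73, 95% interval 1.98 to 5.43), with an adjusted p of 0.287 from edgeR and 0.000961 from DESeq2. For Cxcl3 it was 2.79 (standard error 0.75, 95% interval 1.01 to 4.56), with an adjusted p of 0.310 from edgeR and 0.0422 from DESeq2. For Cxcl5 it was 4.82 (standard error 0.92, 95% interval 2.66 to 6.98), with an adjusted p of 0.287 from edgeR and 4.44e-05 from DESeq2. Without tumor 36, which leaves tumor 27 as the only perineal tumor, so that the spread comes from the trunk tumors alone, the log2 fold change of Cxcl2 was 4.24, that of Cxcl3 was 2.97 and that of Cxcl5 was 2.80, with adjusted p-values of 1.0 from edgeR for each, while DESeq2 gave Cxcl2 an adjusted p of 0.0257. Between the lines, Cxcl5 had a log2 fold change of 4.07 over all tumors, 1.73 without tumor 36 and -0.93 on the trunk tumors alone.

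Cxcl5, Cxcl3, Cxcl15, Cxcl1 and Cxcl2 lie together on chromosome 5 (chr5:90759299-90905938). Cxcl1, Cxcl2 and Cxcl3 each have a κB consensus match on both strands within 100 bases before the start, shown in capitals with 20 bases on either side because they lie in 1 cluster and were each higher in both perineal tumors. The promoter of Cxcl5 was not analysed here. The match lies 71 to 61 bases before the start in Cxcl1 (chr5:90891154-90891204), 97 to 87 bases in Cxcl2 (chr5:90903782-90903832) and 73 to 63 bases in Cxcl3 (chr5:90786008-90786058), all on the plus strand of GRCm38.p6.
Cxcl1: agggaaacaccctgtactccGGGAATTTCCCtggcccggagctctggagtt
Cxcl2: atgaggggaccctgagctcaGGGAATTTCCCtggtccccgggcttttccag
Cxcl3: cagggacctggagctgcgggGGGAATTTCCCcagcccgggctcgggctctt
The 11 capital letters are identical in the 3 genes, whose mean levels were 7.16, 0.827 and 0.702 RPKM.

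Cxcr2, the receptor of these ligands on neutrophils, had 3.31, 3.56, 2.34 and 3.69 CPM in the trunk tumors 13, 18, 25 and 29 and 6.14 and 14.0 CPM in the perineal tumors 27 and 36. The perineal tumors were again above all trunk tumors. The log2 fold change was 1.64 (standard error 0.42, 95% interval 0.65 to 2.63), with an adjusted p of 0.300 from edgeR and 0.0165 from DESeq2, and it was 0.93 without tumor 36. The neutrophil markers, of which 8 of 9 were found and 7 tested, summed to between 21.4 and 64.5 CPM in the trunk tumors and to 160.3 and 469 CPM in tumors 27 and 36. S100a9 reached 74.6 and 269 CPM in these tumors and at most 22.5 CPM in the others. S100a8, Csf3r, Retnlg and Ngp were likewise above every trunk tumor in tumors 27 and 36. Camp and Mmp8 were the highest in the trunk tumor 18, at 0.831 and 3.97 CPM. Elane was at 0 in all tumors but 18, where it had 0.013 CPM. The part of this list in the levels of Cxcr2 and its ligands was not tested.

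Of the 3 ligands of Ccr3, the eosinophil receptor, DESeq2 called Ccl24 by site and edgeR none. Ccl24 had 0.414, 1.09, 0.197 and 0.128 CPM in the trunk tumors 13, 18, 25 and 29 and 2.88 and 20.9 CPM in the perineal tumors 27 and 36. Its log2 fold change of perineal over trunk was 4.67 (standard error 1.02, 95% interval 2.27 to 7.08), with an adjusted p of 0.287 from edgeR and 0.000401 from DESeq2, and it was 2.63 without tumor 36. Ccl11 (eotaxin) had 7.41, 7.82, 1.24 and 7.08 CPM in the trunk tumors and 13.7 and 33.2 CPM in the perineal tumors, a log2 fold change of 2.00 (95% interval 0.39 to 3.60), which was 1.22 (95% interval -0.76 to 3.21) without tumor 36. Both ligands were thus above every trunk tumor in both perineal tumors. The receptor Ccr3 did not separate the sites, ranging from 0.113 to 3.97 CPM with tumor 18 above tumor 27. The mast cell and eosinophil markers, all 7 found, summed to between 14.9 and 59.3 CPM in the Osx-Cre;NT3 tumors, all from the trunk. They summed to 194 CPM in the trunk tumor 29 and to 244 and 239 CPM in the perineal tumors 27 and 36, all of the FSP1-Cre;NT3 line. Their part in the levels of Ccl24, Ccl11 and Ccr3 was not tested. The eosinophil markers among them, Prg2, Epx and Siglecf, were at most 2.53, 0.636 and 4.0 CPM, all in tumor 18.

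**Figure D4:**
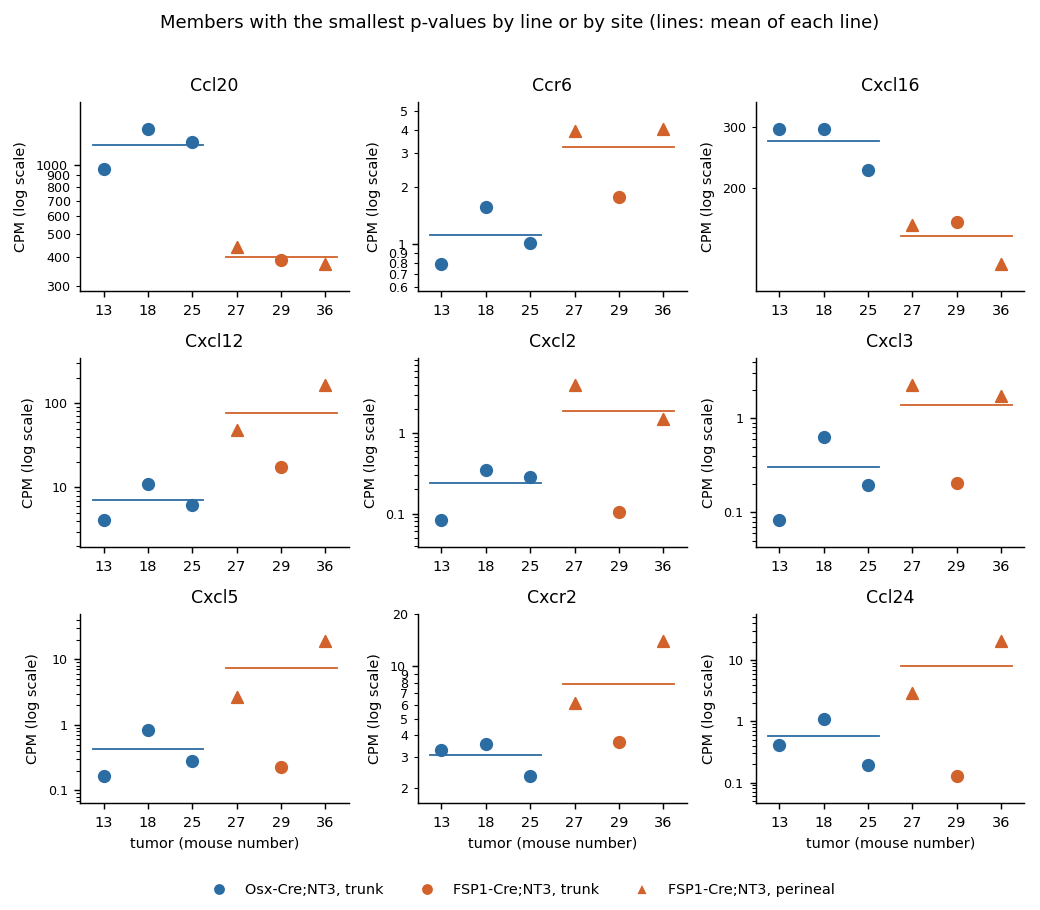
CPM (log axes) in each tumor of the 9 members with the 6 smallest p-values by line or by site; color gives the line, shape the site and the horizontal bars the mean of each line. Ccl20 and Cxcl16 separate the lines with tumor 29 on the FSP1-Cre;NT3 side, whereas for Cxcl2, Cxcl3, Cxcl5 and Ccl24 tumor 29 lies with the Osx-Cre;NT3 trunk tumors.

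Of the homeostatic chemokines tested, Cxcl12 had the smallest p-value by line and by site. Cxcl12, the stromal ligand of Cxcr4, had 4.10, 10.9 and 6.16 CPM in tumors 13, 18 and 25 and 48.0, 17.5 and 166 CPM in tumors 27, 29 and 36. All FSP1-Cre;NT3 tumors were above all Osx-Cre;NT3 tumors, and the perineal tumors were the highest. The log2 fold change by line was 3.44 (standard error 0.86, 95% interval 1.40 to 5.49), with an adjusted p of 0.441 from edgeR and 0.000926 from DESeq2. By site it was 3.46 (standard error 0.65, 95% interval 1.93 to 5.0), with an adjusted p of 0.287 from edgeR and 0.000121 from DESeq2. Without tumor 36 these were 2.21 and 2.31, and on the trunk tumors alone the line difference was 1.30. The fibroblast markers, all 6 found, summed to between 5191 and 6738 CPM in Osx-Cre;NT3 and between 11537 and 14991 CPM in FSP1-Cre;NT3 tumors. Pdgfra, one of them, had at most 30.0 CPM in Osx-Cre;NT3 tumors and 98.4, 41.3 and 109.7 CPM in tumors 27, 29 and 36. It was the only one of the list with both perineal tumors the highest. Col1a1, Col1a2 and Lum were the highest in the trunk tumor 29, and Col3a1 and Dcn were higher in tumor 29 than in tumor 27. The adipocyte markers, all 5 found, summed to between 2.52 and 12.7 CPM in the trunk tumors and to 36.2 and 128.1 CPM in tumors 27 and 36. The part of either list in the level of Cxcl12 was not tested.

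Ccl19 and Cxcl13 guide lymphocytes into the T-cell and B-cell zones of lymphoid tissue. Ccl19 had 3.14, 11.4 and 0.76 CPM in tumors 13, 18 and 25 and 11.0, 10 and 20.9 CPM in tumors 27, 29 and 36. Cxcl13 had 0.29, 9.01 and 0.141 CPM in the Osx-Cre;NT3 tumors and 4.79, 4.15 and 15.6 CPM in the FSP1-Cre;NT3 tumors. For both, tumor 18 lay among the FSP1-Cre;NT3 tumors and away from its own line. The log2 fold changes by line were 1.45 (95% interval -0.66 to 3.56) and 1.37 (95% interval -2.08 to 4.82). Without tumor 36 they were 1.04 for Ccl19 and 0.49 for Cxcl13. Ccr7, the receptor of Ccl19, had 2.15, 11.5 and 1.80 CPM in Osx-Cre;NT3 and 13.3, 4.31 and 7.40 CPM in FSP1-Cre;NT3 tumors, and again overlapped between the lines. Cxcr5, the receptor of Cxcl13, had 0.869, 0.688 and 1.07 CPM in Osx-Cre;NT3 and 1.66, 1.82 and 1.37 CPM in FSP1-Cre;NT3 tumors. Its lines did not overlap, but the log2 fold change of 0.89 had a 95% interval from -0.06 to 1.84. The neighboring Bcl9l, on the other strand, covers 3.3% of the exonic bases of Cxcr5 and had a mean of 66.5 CPM, against 1.25 CPM of Cxcr5.

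The ligands of Ccr2 and Ccr8 recruit monocytes and some T cells. Ccl8 had 25.3, 145 and 7.94 CPM in tumors 13, 18 and 25 and 90.8, 57.3 and 253 CPM in tumors 27, 29 and 36. Ccl7 had 5.71, 17.1 and 2.11 CPM in the first line and 17.9, 7.25 and 29.3 CPM in the second. In both, tumor 25 was the lowest and tumor 36 the highest. Neither line separated, with log2 fold changes of 1.17 (95% interval -1.32 to 3.66) for Ccl8 and 1.13 (95% interval -0.80 to 3.05) for Ccl7. Without tumor 36 they were 0.32 for Ccl8 and 0.60 for Ccl7. Ccl2, Ccl7, Ccl11, Ccl12, Ccl8 and Ccl1 lie within 144 kb on chromosome 11 (chr11:82035577-82179812), yet their mean levels ran from 1.41 RPKM for Ccl1 to 152 RPKM for Ccl8. Ccr2, the receptor of Ccl2, Ccl7 and Ccl12, marks inflammatory monocytes. It had 15.1, 58.7 and 9.68 CPM in tumors 13, 18 and 25 and 47.9, 20.9 and 77.3 CPM in tumors 27, 29 and 36. Ccr2 was thus the highest in tumors 36, 18 and 27 and the lowest in tumor 25.

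Ligands of Ccr1 attract monocytes, macrophages and T cells. Ccl6 had 13.0, 43.9 and 11.7 CPM in tumors 13, 18 and 25 and 27.1, 12.4 and 159 CPM in tumors 27, 29 and 36, a log2 fold change by site of 2.20 (95% interval 0.39 to 4.02), which was 0.42 (95% interval -1.44 to 2.28) without tumor 36. Ccl5 had 10.9, 24.4 and 4.47 CPM in the Osx-Cre;NT3 and 19.3, 7.51 and 12.3 CPM in the FSP1-Cre;NT3 tumors, a log2 fold change by line of -0.03 (95% interval -1.54 to 1.48). Ccl6 was set apart by tumor 36, whereas Ccl5 had tumor 18 as its highest. The receptor Ccr1 moved within 3.26-fold. It had 20.6, 37.4 and 17.2 CPM in the first line and 30.9, 13.2 and 43.1 CPM in the second. It separated neither the lines nor the sites. The macrophage and monocyte markers, all 10 found, summed to between 1731 and 3918 CPM in Osx-Cre;NT3 and between 1646 and 2177 CPM in FSP1-Cre;NT3 tumors, with Lyz2 the most abundant of them in every tumor. The list sum was the highest in tumor 13, at 3918 CPM. Mrc1 and Cd163, also of this list, were the highest in tumor 36, at 242.9 and 59.2 CPM, and the lowest in tumor 13, at 16.2 and 2.36 CPM. Adgre1, Csf1r and Cd14 were also higher in tumor 36 than in tumor 13. Cd68, C1qa, C1qb, C1qc and Lyz2 were higher in tumor 13 than in tumor 36. The part of the list in the levels of Ccl6, Ccl5 and Ccr1 was not tested.

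The interferon-induced ligands of Cxcr3 were the highest or close to it in tumor 18. Cxcl10 had 30.9, 94.2 and 21.5 CPM in tumors 13, 18 and 25 and 25.4, 18.5 and 23.1 CPM in tumors 27, 29 and 36. Cxcl9 had 12.9, 58.4 and 7.82 CPM in the first line and 39.5, 19.9 and 66.4 CPM in the second. Cxcl11 had 4.92, 18.5 and 2.56 CPM and 5.18, 4.23 and 2.37 CPM. Tumor 18 was thus far above all others for Cxcl10 and Cxcl11, while for Cxcl9 tumor 36 lay above it. Log2 fold changes by line were -1.13 (95% interval -2.43 to 0.17) for Cxcl10 and 0.67 (95% interval -1.23 to 2.56) for Cxcl9. Without tumor 36 they were -1.15 for Cxcl10 and 0.17 for Cxcl9. The T cell markers, of which 8 of 9 were found, summed to 219 CPM in tumor 18 and to between 62.6 and 153 CPM in the others, and their part in these levels was not tested. Ifng was low, with 1.82 CPM in tumor 18 and at most 0.906 CPM elsewhere. Exons of Art3 on the other strand cover 5.91% of the exonic bases of Cxcl10, and Art3 had a mean of 18.1 CPM against 35.6 CPM of Cxcl10.

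Cxcl10 has 2 separate κB consensus matches before its start, from 159 to 150 bases (chr5:92349019-92349068) and from 104 to 94 bases (chr5:92348963-92349013), on the minus strand of GRCm38.p6. They are shown in capitals, read along the gene, because Cxcl10 was the most abundant of these ligands per length.
Cxcl10 upstream match: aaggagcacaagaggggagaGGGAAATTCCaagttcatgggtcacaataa
Cxcl10 downstream match: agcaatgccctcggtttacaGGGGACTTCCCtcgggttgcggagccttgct

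Ccl17 and Ccl22, which attract Ccr4-bearing T cells, had their highest levels in tumor 18. Ccl17 had 5.75, 15.9 and 2.62 CPM in tumors 13, 18 and 25 and 4.33, 4.0 and 6.69 CPM in tumors 27, 29 and 36. Ccl22 had 4.51, 13.1 and 1.86 CPM in the first line and 11.0, 4.08 and 11.1 CPM in the second. Xcl1, which attracts Xcr1-bearing dendritic cells, had 4.76, 11.3 and 1.72 CPM and 4.05, 1.74 and 2.72 CPM. In each of these 3 ligands tumor 18 was the highest and tumor 25 the lowest, and the lines overlapped. Exons of Gm20743 on the other strand cover 18.7% of the exonic bases of Xcl1.

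Among the receptors, Ccr6 differed in the opposite direction to its ligand Ccl20. It had 0.786, 1.57 and 1.01 CPM in tumors 13, 18 and 25 and 3.93, 1.77 and 4.03 CPM in tumors 27, 29 and 36. The lines did not overlap, and tumor 29 lay close to tumor 18. The log2 fold change by line was 1.52 (standard error 0.50, 95% interval 0.33 to 2.71), with an adjusted p of 0.458 from edgeR and 0.0959 from DESeq2, and by site 1.63 (standard error 0.46, 95% interval 0.55 to 2.7), with 0.323 from edgeR and 0.0279 from DESeq2. Per length, Ccr6 was at 0.861 ± 0.602 RPKM (SD, n = 6 tumors), against 795 ± 446 RPKM of Ccl20. All 10 CC receptors tested had a log2 fold change above 0 by line and by site, against 51.1% and 48.2% of all entries. By line, 7 of 10 were above 0 without tumor 36, and 3 of 11 on the trunk tumors alone, with tumor 29 as the only FSP1-Cre;NT3 tumor. By site, 9 of 10 were above 0 without tumor 36, with tumor 27 as the only perineal tumor. Within the FSP1-Cre;NT3 line 9 of 10 were above 0, with tumor 29 as the only trunk tumor. The trunk and within-line fits thus both rest on tumor 29, so that line and site cannot be told apart here. The medians of the CC receptors over all tumors were 0.67 by line and 1.05 by site, and in both comparisons the 95% interval excluded 0 for Ccr6 alone among them.

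Cxcr4, the receptor of Cxcl12, was the steadiest member. It had 34.9, 45.8 and 30.5 CPM in tumors 13, 18 and 25 and 34.8, 30.4 and 41.9 CPM in tumors 27, 29 and 36. The log2 fold change by line was -0.05 (95% interval -0.61 to 0.51), so that a difference of more than 0.61 on the log2 scale lies outside the interval. Cxcr7 (Ackr3), an atypical receptor that scavenges Cxcl12, varied more, with 4.01, 22.3 and 5.09 CPM in the first line and 18.0, 6.33 and 27.4 CPM in the second. Cx3cr1, the fractalkine receptor of monocytes and tissue macrophages, had 80.1, 46.8 and 73.1 CPM and 51.4, 43.7 and 29.7 CPM. It was the lowest in tumor 36, where 8 of the 10 CC receptors tested were the highest, and its log2 fold change by line was -0.68 (95% interval -1.38 to 0.02). Cxcr6, the receptor of Cxcl16, had 27.7, 39.4 and 16.8 CPM and 25.3, 21.2 and 18.0 CPM, a log2 fold change of -0.38 (95% interval -1.19 to 0.43).

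Genes of the chemokine pathway outside the symbol rule were counted separately. They were listed for atypical receptors, other ligands, G protein signaling, downstream signaling, ligand processing, the NF-κB pathways and interferon-γ signaling. The lists include chemokines under other symbols, such as Pf4 and Ppbp. Of the genes listed, 80 were outside the symbol rule, and all of these were found and tested. By line, edgeR called 0 of them at an adjusted p of 0.05, with 4 higher (against 7.31% of all entries) and 2 lower (against 3.47%) at an unadjusted p under 0.05, and DESeq2 called 4, all higher, against 2.56% of all entries in either direction. By site, edgeR called 0, with 9 higher (against 8.61%) and 0 lower (against 1.63%) at an unadjusted p under 0.05, and DESeq2 called 3, against 3.42%. The 15 genes of alternative NF-κB input had a median log2 fold change of -0.03 by line and -0.05 by site, near the 0.01 and -0.02 of all entries. Relb and Nfkb2, which encode the alternative NF-κB dimer, were at 229, 195 and 220 CPM and 432, 307 and 582 CPM in tumors 13, 18 and 25, and at 200, 209 and 85.2 CPM and 471, 483 and 190 CPM in tumors 27, 29 and 36. Both genes were the lowest in tumor 36. Their part in the levels of the members was not tested.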

How the data were processed

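RNA from 6 tumors was measured by RNA-seq. The authors trimmed reads and, per the paper's methods, aligned them to mm10 with HISAT2 and counted genes with featureCounts, whereas the submitters' processing notes name bcl2fastq, TopHat2 2.0.6 and HTSeq. The authors deposited raw counts per gene, without normalization. Every count was even (100.0%). The authors also deposited RPKM, in whose library totals the gene counts make up 77.2% to 81.5%. RPKM was used here only to compare genes. Strandedness and annotation were not given in the sources used here. Values of other samples numbered 0 columns.

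Counts were tested with edgeR 4.0.16 (R 4.3.3, limma 3.58.1) by filterByExpr, TMM scaling, glmQLFit and glmQLFTest, with Benjamini-Hochberg adjustment over 16415 entries. Line (3 against 3) and site (4 trunk against 2 perineal) were fitted separately, and intervals of 95% use the quasi-likelihood standard error. The common biological coefficient of variation was 0.478 by line and 0.458 by site. Scripts were tested on simulated data. Total counts of 51824408 to 163297772 set a floor of 3 counts at 0.0195 to 0.0621 CPM, which covers counting error only, since reads carried no molecular identifiers. Mean RNA integrity numbers per the paper's methods were 7.7 for the Osx-Cre;NT3 and 8.5 for the FSP1-Cre;NT3 line.

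Alternatives were DESeq2 1.42.0, library sizes alone, upper-quartile scaling, other count filters, halved counts, site or line as a covariate, trunk or FSP1-Cre;NT3 tumors alone, and leaving out each tumor. Chosen after seeing the data were DESeq2 and the levels without each tumor, and the whole promoter window. The members and lists were chosen with earlier results of these data known. Named with values in every tumor were the 2 most abundant members of each ligand role, the 8 most abundant receptors, members tied to alternative NF-κB, the 6 smallest p by line and by site, and the 4 widest ranges, with other genes as examples; a few items are not reported here. The κB consensus (10 letters) was searched on both strands of the 250 bases before each RefSeq start.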

Additional observations from a re-analysis of the deposited data

Results flagged for a closer look

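In 2 of the 33 members chosen for values in every tumor, a tumor lay beyond Dixon's 95% critical value for 6 samples on the log2 CPM scale, where chance flags about 1 group in 20. Cxcl10 in Osx-Cre;NT3 tumor 18 was at 6.56 log2 CPM, with the next tumor at 4.95. Ccl28 in FSP1-Cre;NT3 tumor 36 was at 6.03 log2 CPM, with the next tumor at -0.06. The share of members, 6.06%, was near the 6.87% of all entries tested.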

How the results depend on the processing

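The count of entries called by line was 0 in every edgeR fit. It was 420 with DESeq2, and from 196 (without tumor 36) to 3650 (without tumor 25) with DESeq2 without each tumor in turn. Members called by line numbered 4 with DESeq2 and from 2 to 11 with DESeq2 without each tumor. The 11 came from the fit without tumor 18, which called 499 of all entries. By site, edgeR called 0 entries except without a tumor, where it called from 0 to 415, with 2 without tumor 25 and 415 without tumor 27. DESeq2 called 561 by site, and from 14 (without tumor 36) to 1330 (without tumor 27) without each tumor. Members called by site numbered 8 with DESeq2 over all tumors. Without tumor 18, DESeq2 called 21 members by site and 649 of all entries. The count of members with a highest tumor above 10 times the lowest was 15, and from 9 (without tumor 25) to 15 without each tumor. It was 15 on RPKM and on library sizes alone. The 12 log2 fold changes of the members with the smallest p were recomputed 234 times. In 174 they kept direction and side of the threshold, in 58 they kept the direction and passed it, and in 2 the direction turned: the line difference of Cxcl5, -0.93 with site as a covariate and -0.93 on trunk tumors alone, where the perineal tumors no longer count towards it. With library sizes alone the median log2 fold change of all entries by line moved from 0.01 to 0.12, and that of the members from 0.55 to 0.67. Matches to the κB consensus were found in 11 members in the whole promoter window and 10 before the start. No paired analysis was possible because the mouse numbers of the labels differ between the lines. With 3 mice a line and 2 perineal tumors, differences under the intervals given could not be seen, and site, line and latency cannot be told apart fully.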
